A study of Mus musculus with 6 samples.

Results

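The genes described here are 10 markers of monocytes and macrophages, namely C1qa, C1qb, C1qc, Csf1r, Adgre1, Fcgr1, Mrc1, Siglec1, Plac8 and Cx3cr1. They were taken by symbol from a count table of 28368 genes, and all 10 passed the filter on low counts that left 18049 genes for testing. The table holds 6 mouse tumour RNA libraries. The 3 treated libraries come from tumours given MS-DF-MS therapy for 12 h, and the 3 control libraries come from untreated tumours. The series title describes an implanted depot that releases a STING agonist and then an inducer of apoptosis. The labels used here name neither drug, nor the tumour line or mouse strain, and list no group with an empty depot, so the drugs and the implant cannot be told apart.

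Monocytes enter tumours from the blood and can mature there into macrophages, which engulf dying cells and debris. Macrophages are a main source of C1q, the recognition protein of the classical complement pathway, and depend on signals through the receptor Csf1r. STING senses cyclic dinucleotides made in response to cytosolic DNA and drives type I interferon, and several of the genes below, among them Siglec1 and Fcgr1, are known to respond to interferons.

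Total counts ran from 57017043 to 66634551 per library. Treated 3 stood apart from the other 5 libraries: on the first principal component of log2 CPM (counts scaled to a common library total), which held 28.4% of the variance, it lay at 72.9 and the others between -37.9 and 13.3. Calls and fold changes of the 10 genes and calls of the gene lists are therefore given with and without treated 3. All 20 genes of an interferon-stimulated list rose with treatment in the edgeR quasi-likelihood test, where 1.36% of all genes were called higher. The list was chosen with earlier results of these data known, so the count of 20 may partly follow from that choice. For treated 1, 2 and 3 the list medians, as log2 ratios to controls, were 3.25, 3.38 and 2.91. On these genes the library that stood apart was thus also high. Summed CPM of 7 melanocyte markers was 21636 to 23503 in treated and 21010 to 23200 in control libraries, so pigment cell genes were abundant and at similar levels in both groups. Whether the libraries of a group come from separate animals is not in the labels, and the p-values below therefore reflect only variation among these samples, some of which may be technical. In whole tumour RNA, fewer cells of a type and less RNA per cell cannot be told apart.

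The promoter sequences of Fcgr1, C1qb, C1qc and Plac8 are shown because the values of these genes separate below. Fcgr1 and Plac8 stood high against the C1q genes in treated tumours, and the C1q genes serve as the reference. RefSeq windows on GRCm38.p6, running from 250 bases before to 50 bases after a transcript start, were matched for 6 of the 10 genes. Plac8 has a second window, chr5:100563047-100563346, which is not printed and also holds no match. Capitals mark matches to 2 motifs, the PU.1 core AGGAAGT (PU.1 is a master transcription factor of myeloid cells) and the gamma-activated site TTCNNNGAA (an element of interferon-responsive promoters), searched on both strands. No marked matches overlap each other.
Fcgr1, chr3:96293920-96294219, minus strand: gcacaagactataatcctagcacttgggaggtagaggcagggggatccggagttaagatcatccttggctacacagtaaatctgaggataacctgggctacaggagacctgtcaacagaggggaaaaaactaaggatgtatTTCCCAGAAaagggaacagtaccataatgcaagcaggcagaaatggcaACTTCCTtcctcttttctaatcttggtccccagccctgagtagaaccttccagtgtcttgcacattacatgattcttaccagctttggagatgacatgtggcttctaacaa
C1qb, chr4:136886151-136886450, minus strand: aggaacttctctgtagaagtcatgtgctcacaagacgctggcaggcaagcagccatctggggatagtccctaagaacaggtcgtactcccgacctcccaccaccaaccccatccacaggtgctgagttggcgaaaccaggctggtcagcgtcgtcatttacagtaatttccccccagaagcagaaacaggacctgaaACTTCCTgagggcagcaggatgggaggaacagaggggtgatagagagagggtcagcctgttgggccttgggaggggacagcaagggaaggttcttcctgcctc
C1qc, chr4:136892865-136893164, minus strand: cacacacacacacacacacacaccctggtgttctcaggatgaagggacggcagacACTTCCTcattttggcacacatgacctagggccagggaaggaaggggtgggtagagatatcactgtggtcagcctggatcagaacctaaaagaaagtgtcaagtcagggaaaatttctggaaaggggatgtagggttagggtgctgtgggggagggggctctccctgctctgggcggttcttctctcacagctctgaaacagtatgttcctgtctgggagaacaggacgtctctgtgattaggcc
Plac8, chr5:100572156-100572455, minus strand: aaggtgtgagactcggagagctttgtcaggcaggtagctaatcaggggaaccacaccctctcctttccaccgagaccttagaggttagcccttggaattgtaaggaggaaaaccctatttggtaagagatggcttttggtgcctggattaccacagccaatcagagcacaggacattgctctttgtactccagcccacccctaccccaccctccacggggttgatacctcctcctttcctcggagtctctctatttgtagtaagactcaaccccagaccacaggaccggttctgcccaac

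The Fcgr1 window holds a gamma-activated site match, TTCCCAGAA, that begins 109 bases before the start, and a PU.1 core match that begins 61 bases before it. C1qb has a PU.1 core match beginning 53 bases before its start and C1qc one beginning 195 bases before. The window of Mrc1 also holds one, which makes 4 of the 6 genes, while 9.35% of 32851 RefSeq promoter windows of this length do. The gamma-activated site occurs in 1 of the 6 genes and in 8.30% of all windows. The interferon-stimulated response element core GAAANNGAA occurs in none of the 6 and in 8.56% of all windows. A match describes letters only and does not show that a factor binds there. The part of these matches in the levels of the genes was not tested.

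The main pattern across the 10 genes was a wide spread among the treated libraries. With all 6 libraries, a shift of the group was called by edgeR only for Plac8. A gene that was not called may still have shifted within that spread. Treated 1 was the highest and treated 3 the lowest of the treated libraries for 9 of the 10 genes, all but Plac8, whereas 19.3% of all tested genes had that order. Treated 3 lay below each control library for the same 9 genes, against 30.4% of all tested genes. The ratio of the highest to the lowest treated library had a median of 4.31 over the 10 genes and 1.28 over all tested genes. Among controls, the same ratio was 1.23 over the 10 genes and 1.22 over all. Plac8 was the 1 gene called higher by edgeR at an adjusted p below 0.05, where 1.36% of all genes were called higher, and none of the 10 was called lower, where 0.249% of all were. An unadjusted edgeR p below 0.05 was found for 2 of the 10, Plac8 and Fcgr1, and for 16.0% of all genes. Without treated 3, edgeR called Plac8 and Fcgr1 higher, where 1.64% of all genes were called higher, and none of the 10 lower, where 0.208% were. DESeq2 with all libraries called Plac8 alone higher and none lower, where 4.95 and 2.41% of the genes it gave an adjusted p were called. Treated and control libraries failed to overlap for 1 of the 10 genes, again Plac8, against 23.3% of all tested genes. The median log2 fold change was -0.25 over the 10 genes and -0.00324 over all genes, with 3 of the 10 positive and 7 negative.

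**Figure D1:**
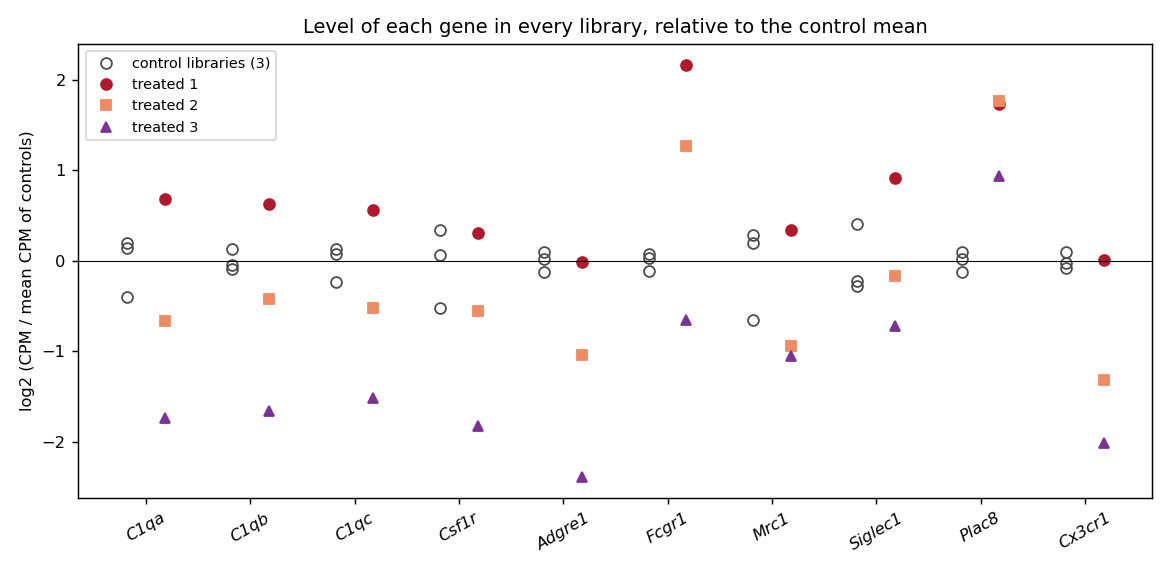
Log2 ratio of CPM to the mean CPM of the controls for each of the 10 genes, with open circles for the 3 control libraries and filled symbols for treated 1, 2 and 3. For 9 genes treated 1 is the highest and treated 3 the lowest of the treated libraries, and Plac8 alone has all 3 treated libraries above all 3 controls.

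C1qa, C1qb and C1qc encode the 3 chains that assemble into C1q. They lie side by side on chromosome 4, C1qa (ENSMUSG00000036887) at chr4:136895917-136898803, C1qb (ENSMUSG00000036905) at chr4:136880129-136886187 and C1qc (ENSMUSG00000036896) at chr4:136889804-136893065, all on the minus strand as whole gene spans in the table. C1qa measured 37.9, 14.9 and 7.11 CPM in treated 1, 2 and 3 and 27.0, 26.2 and 17.9 CPM in control 1, 2 and 3. C1qb measured 42.5, 20.4 and 8.66 CPM in the treated and 30.0, 25.7 and 26.6 CPM in the control libraries. C1qc measured 31.6, 14.9 and 7.48 CPM in the treated and 23.4, 22.6 and 18.1 CPM in the control libraries. For each chain, treated 1 lay above every control and treated 2 and treated 3 lay below every control, so the treated libraries fell on both sides of the controls.

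The log2 fold change was -0.25 ± 0.51 (SE, n = 3 against 3; edgeR adjusted p = 0.867) for C1qa, with a 95% interval from -1.43 to 0.94. For C1qb it was -0.20 ± 0.46 (edgeR adjusted p = 0.88) and for C1qc -0.25 ± 0.44 (edgeR adjusted p = 0.839). Without treated 3 the estimates changed sign, to 0.16, 0.20 and 0.12, and none was called. On the length-scaled FPKM values the proportions of the 3 chains varied less over the 6 libraries than their total. The summed level was 81.9, 35.4 and 16.6 FPKM in the treated and 58.3, 53.6 and 45.2 FPKM in the control libraries. The proportions were not constant, and the C1qa share was 41.6% in control 2 and 33.7% in control 3. C1qa made up 33.7 to 41.6% of that sum over the 6 libraries, C1qb 39.1 to 47.9% and C1qc 17.8 to 20.7%.

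Csf1r, Adgre1 and Fcgr1 encode surface receptors used to identify these cells. Csf1r (ENSMUSG00000024621) encodes the receptor for CSF1 and IL-34, which sustain macrophages. It measured 14.4, 7.92 and 3.28 CPM in the treated and 14.7, 12.2 and 8.12 CPM in the control libraries. Treated 2 and treated 3 lay below each control and treated 1 lay within the controls. Its log2 fold change was -0.45 ± 0.47 (SE, n = 3 against 3; edgeR adjusted p = 0.706), and -0.07 ± 0.32 without treated 3.

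Adgre1 (ENSMUSG00000004730, chr17:57358691-57483527, plus strand) encodes the adhesion receptor recognised by the F4/80 antibody, a standard mouse macrophage marker. It measured 8.31, 4.05 and 1.60 CPM in the treated and 8.50, 8.93 and 7.70 CPM in the control libraries. The controls were close together, treated 1 fell among them and the other 2 treated libraries lay below. The log2 fold change was -0.85 ± 0.49 (SE, n = 3 against 3; edgeR adjusted p = 0.45), with a 95% interval from -1.98 to 0.28. Without treated 3 it was -0.44 ± 0.29 (edgeR adjusted p = 0.543).

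Fcgr1 (ENSMUSG00000015947, chr3:96282909-96293969, minus strand) encodes the high-affinity IgG receptor, CD64. It measured 15.7, 8.40 and 2.21 CPM in the treated and 3.68, 3.23 and 3.58 CPM in the control libraries. Treated 1 was 4.49-fold and treated 2 2.40-fold the control mean, while treated 3 was 0.633-fold and lay below each control. Over all libraries the log2 fold change was 1.33 ± 0.57 (SE, n = 3 against 3; edgeR adjusted p = 0.311), and it was not called. Without treated 3 Fcgr1 was called higher, at 1.78 ± 0.27 on the log2 scale or 3.45-fold (SE, n = 2 against 3; edgeR adjusted p = 0.0198). That was the only call of Fcgr1 in 14 alternatives. Leaving out any other library gave edgeR adjusted p of 0.443 to 0.589, and the log2 fold change was 0.60 without treated 1.

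Mrc1 and Siglec1 encode lectins, proteins that bind sugars. Mrc1 (ENSMUSG00000026712, chr2:14229392-14332057, plus strand) encodes the mannose receptor CD206, a marker of alternatively activated and tissue macrophages. It measured 17.0, 6.99 and 6.47 CPM in the treated and 15.3, 16.3 and 8.51 CPM in the control libraries. Control 3 was the low control, treated 1 was above all controls and the other treated libraries were below them. Its log2 fold change was -0.40 ± 0.40 (SE, n = 3 against 3; edgeR adjusted p = 0.693), and -0.16 ± 0.40 without treated 3.

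Siglec1 (ENSMUSG00000027322, chr2:131069220-131086765, minus strand) encodes CD169, which binds sialic acid and is known to respond to interferon. It measured 7.91, 3.73 and 2.54 CPM in the treated and 5.56, 3.45 and 3.58 CPM in the control libraries. Treated 1 was above every control, treated 2 lay among them and treated 3 was below them. Its log2 fold change was 0.17 ± 0.41 (SE, n = 3 against 3; edgeR adjusted p = 0.889), and 0.47 ± 0.36 without treated 3 (edgeR adjusted p = 0.603).

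Plac8 and Cx3cr1 are linked to monocytes. Plac8 (ENSMUSG00000029322, chr5:100553725-100572245, minus strand) encodes a small cysteine-rich protein found in monocytes and neutrophils. It measured 16.8, 17.2 and 9.65 CPM in the treated and 4.62, 5.12 and 5.38 CPM in the control libraries. All 3 treated libraries lay above all 3 controls, and treated 3 was again the lowest of the treated. The mean was 14.5 ± 4.24 CPM in treated and 5.04 ± 0.389 CPM in control libraries (SD, n = 3 each). Plac8 rose 2.88-fold, a log2 fold change of 1.53 ± 0.23 (SE, n = 3 against 3; edgeR adjusted p = 0.0198). Without treated 3 it was 1.75 ± 0.14 (edgeR adjusted p = 0.0011). The call did not hold when any of 4 other libraries was left out: the edgeR adjusted p was 0.0959 without treated 2, 0.088 without control 1, 0.126 without control 2 and 0.102 without control 3, and limma-voom gave 0.0511.

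Cx3cr1 (ENSMUSG00000052336) encodes the receptor for fractalkine and marks patrolling monocytes and some tissue macrophages. It had only 28, 11 and 7 counts in the treated and 27, 26 and 26 counts in the control libraries, or 0.428, 0.171 and 0.105 CPM against 0.417, 0.404 and 0.456 CPM. Treated 1 lay among the controls, and treated 2 and treated 3 were lower. The exact 95% Poisson interval, which covers counting error only, was 2.81 to 14.4 for the 7 counts of treated 3 and 17.0 to 38.1 for the 26 counts of control 2. The log2 fold change was -0.85 ± 0.62 (SE, n = 3 against 3; edgeR adjusted p = 0.564), and -0.50 ± 0.64 without treated 3. The table's span for Cx3cr1, chr9:119901616-120068296, also covers 6 other genes, and its counts are uncertain because the use of strand in counting is not known here.

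**Figure D2:**
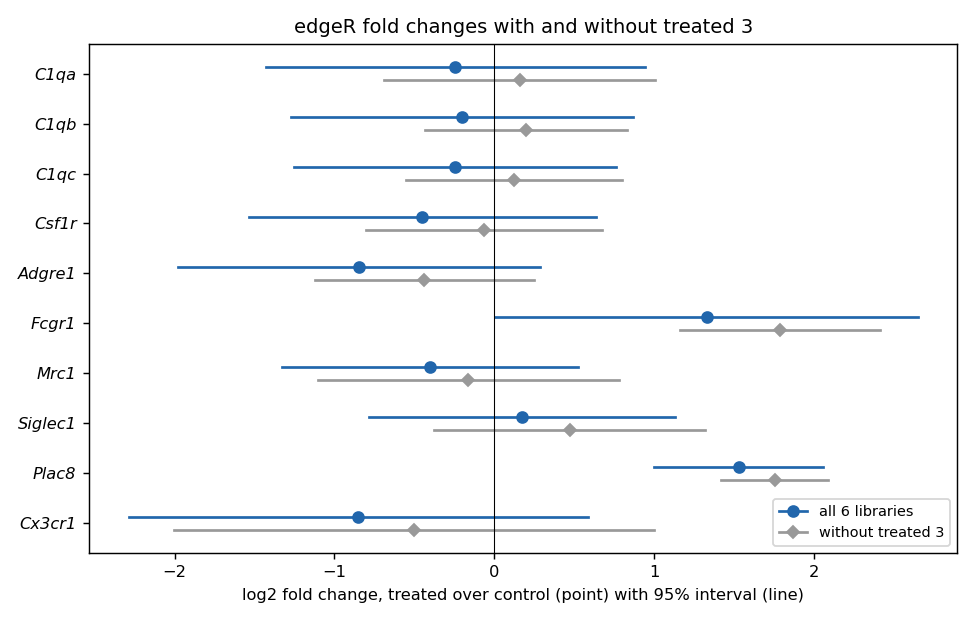
Log2 fold change of treated over control for each of the 10 genes with its 95% interval, for all libraries and without treated 3. The interval of Plac8 lies above 0 in both, and that of Fcgr1 is 0.01 to 2.65 with all libraries and narrower without treated 3.

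Levels were compared between genes only as FPKM, which is scaled by length. In control libraries C1qb stood at 22.4 ± 1.86, C1qa at 20.2 ± 4.31 and C1qc at 9.81 ± 1.31 FPKM (SD, n = 3 each), and the first 2 overlapped. Plac8 followed at 2.80 ± 0.22 FPKM, and Adgre1, Mrc1, Csf1r and Fcgr1 lay between 2.29 and 1.19 FPKM with overlapping neighbours. Siglec1 at 0.520 ± 0.148 FPKM and Cx3cr1 at 0.0814 ± 0.00602 FPKM were the lowest. In treated libraries the mean levels were 8.04 ± 2.29 FPKM for Plac8 and 8.23 ± 5.72 FPKM for C1qc, and Fcgr1 at 2.99 ± 2.32 FPKM followed next. All neighbours in the treated order overlapped except Siglec1 and Cx3cr1.

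To see which genes moved apart from the shared spread, each was expressed within its library as its log2 CPM minus the mean log2 CPM of C1qa, C1qb and C1qc. Of 7 genes compared, 5 did not overlap between treated and control, against 4.97% of all tested genes on the same scale. Genes that do not follow C1q take on its wide treated spread on this scale. Without the scaling, 23.3% of all tested genes did not overlap, so 4.97% is not a like background for these 7. Plac8 stood 1.99 higher on the log2 scale in treated libraries, with values of -1.14, 0.05 and 0.32 against -2.53, -2.27 and -1.93 in controls. Its direct log2 fold change was 1.53. Plac8 does not follow C1q, so this scale carries the spread of C1q into it. Treated 3 was its highest value here, although its CPM was lowest of the treated libraries there (9.65). Fcgr1 stood 1.43 higher, with -1.24, -0.98 and -1.80 against -2.86, -2.94 and -2.52. Treated 3 was thus also above every control on this scale, although the Fcgr1 CPM in that library (2.21) lay below every control. Fcgr1 does not follow C1q closely either, so the limit given for Plac8 applies to it too. Siglec1 stood 0.55 higher, with -2.23, -2.15 and -1.60 against -2.26, -2.85 and -2.52, and treated 1 cleared control 1 only narrowly.

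Adgre1 stood 0.64 lower relative to C1q (difference -0.64), with -2.16, -2.03 and -2.27 in treated against -1.65, -1.47 and -1.41 in control libraries. Cx3cr1 differed by -0.60, which rests on the low counts above. For each of these 5 genes the two-sided exact permutation p was 0.1, the smallest that 3 against 3 allows, and 0.14 after Benjamini-Hochberg adjustment over the 7, so none could pass the 0.05 threshold. Csf1r (-0.15, exact permutation p = 0.4) and Mrc1 (0.01, exact permutation p = 0.9) overlapped between groups. Leaving out each library in turn kept the difference of Fcgr1 between 1.25 and 1.66, of Plac8 between 1.70 and 2.43, of Siglec1 between 0.35 and 0.69 and of Adgre1 between -0.71 and -0.58.

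**Figure D3:**
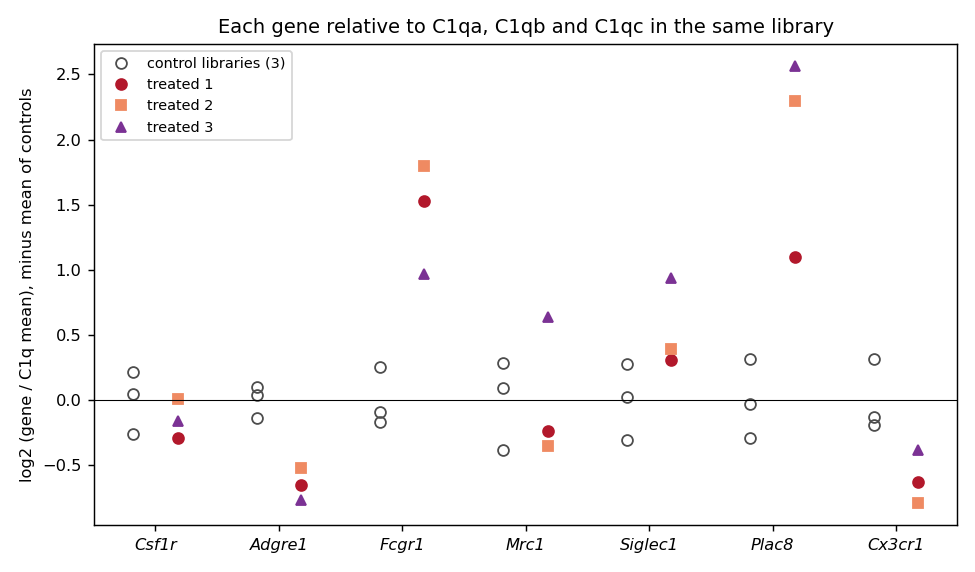
Log2 CPM of 7 genes minus the mean log2 CPM of the 3 C1q genes in the same library, shown after subtracting the control mean, with open circles for controls and filled symbols for treated 1, 2 and 3. Plac8, Fcgr1 and Siglec1 lie higher and Adgre1 and Cx3cr1 lower in the treated libraries with no overlap, while Csf1r and Mrc1 overlap.

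Genes that shared the pattern of C1q were ranked by the root mean square distance between centred log2 CPM profiles over the 6 libraries, among the 12388 genes whose mean log2 CPM was 1 or more. As a description with no test, the nearest 8 were Tyrobp (0.0641), an adaptor of myeloid receptors, Pld4 (0.0862), Plek (0.0868), Laptm5 (0.103), Wfdc17 (0.147), Hk3 (0.149), Cyth4 (0.158) and Ms4a7 (0.161), while the median over all genes was 0.730. Tyrobp measured 10.5, 4.41 and 2.35 CPM in the treated and 7.65, 7.38 and 5.70 CPM in the control libraries. Csf1r was the nearest of the 10 genes outside C1q, at 0.180, and Fcgr1 (0.764) and Plac8 (1.10) were the farthest.

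**Figure D4:**
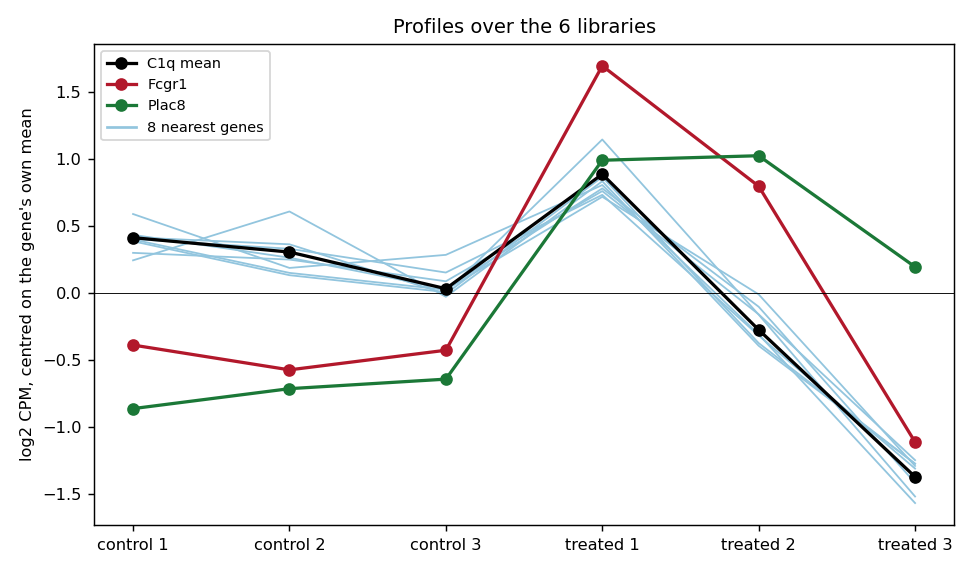
Log2 CPM, centred on each gene's own mean, of the C1q mean, its 8 nearest genes and Plac8 and Fcgr1 over the 6 libraries, where lines only join the points of 1 gene. The nearest genes lie close to C1q, and Fcgr1 and Plac8 depart from it.

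Of 19 tested monocyte markers in a list, 1 rose, Ace, and none fell in the edgeR test, with 6 at an unadjusted p below 0.05 (16.0% of all genes were). DESeq2 called 4 higher, Ace, Ly6c2 and Chil3 among them, and 1 lower, Klf4. Ace, which encodes angiotensin-converting enzyme and is also made by endothelial cells, rose by 2.09 ± 0.25 on the log2 scale (SE, n = 3 against 3; edgeR adjusted p = 0.0064), and its highest level was in treated 3. Of 9 endothelial markers, edgeR called 5 higher (Pecam1, Cdh5, Robo4, Tie1 and Emcn) and none lower, with and without treated 3, and their median log2 ratio to controls was 0.87, 0.88 and 0.78 in the treated libraries. The part of endothelial cells in the Ace level was not tested. The median log2 fold change of the list was 0.11, and the treated libraries 1, 2 and 3 had list medians of 0.82, 0.13 and -1.17 as log2 ratios to controls, the order of the C1q genes. Ly6c2, a marker of inflammatory monocytes, measured 7.43, 4.49 and 1.58 CPM in the treated and 0.927, 1.26 and 1.21 CPM in the control libraries, with no overlap (1.99 ± 0.51 on the log2 scale, SE, n = 3 against 3; edgeR adjusted p = 0.116). Without treated 3, edgeR called 4 of 20 tested higher, Ly6c2 and Ms4a6c among them, and none lower.

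Of 23 tested other macrophage markers, none passed the edgeR test in either direction, with 2 at an unadjusted p below 0.05 (16.0% of all genes were), and DESeq2 called 1 higher (Hmox1) and 1 lower (Folr2). Without treated 3, edgeR called 1 of 24 higher, Axl, a receptor for apoptotic cells and debris, and none lower. The list median was 0.24, 0.05 and -0.84 over the control mean in treated 1, 2 and 3. Folr2, a folate receptor of tissue-resident macrophages, measured 0.887, 0.699 and 0.241 CPM in the treated and 4.73, 2.56 and 0.474 CPM in the control libraries, where the controls themselves spread widely. Of 12 tested genes of the CSF1 receptor and fractalkine axis, none was called, with 2 at an unadjusted p below 0.05 and none called by DESeq2. Without treated 3, edgeR called 2 of 13 higher, the cytokine genes Ccl2 and Csf3. Csf1, a ligand of Csf1r, measured 25.8, 39.6 and 20.5 CPM in the treated and 17.8, 21.0 and 25.1 CPM in the control libraries, which overlap.

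Of 12 partners of C1q in the classical complement pathway, none was called by edgeR, with 2 at an unadjusted p below 0.05 (16.0% of all genes were), and DESeq2 called Cd93 higher. Without treated 3 none was called. Their median log2 ratio to controls was 0.08, 0.10 and -0.18 in treated 1, 2 and 3, while single members spread more widely, such as C3 at 39.8, 34.2 and 7.33 CPM in the treated and 53.6, 24.5 and 32.4 CPM in the control libraries. Of 12 genes of Fc receptor signalling, none was called with or without treated 3, with 0 at an unadjusted p below 0.05 and none by DESeq2, and the median was 0.88, 0.02 and -0.79. Fcer1g, the signalling chain that partners Fcgr1, measured 21.6, 10.7 and 4.08 CPM in the treated and 10.8, 11.8 and 10.4 CPM in the control libraries, so it did not share the high treated 2 level of Fcgr1. Of 17 macrophage activation genes, none was called by edgeR, with 5 at an unadjusted p below 0.05, and DESeq2 called 3 higher, Cd40, Il6 and Cxcl10. Without treated 3, edgeR called 5 higher, Cd40, Nos2, Il6, Irf5 and Cxcl10, and none lower.

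Markers of other blood-derived cells differed between the treated libraries, in most lists in the order of the C1q genes. The 15 pan-leukocyte markers had a median log2 ratio to controls of 0.47, -0.39 and -1.46 in treated 1, 2 and 3. Only 1 of them, Lcp1, was called, and it fell (-0.51 ± 0.08 on the log2 scale, SE, n = 3 against 3; edgeR adjusted p = 0.02). Lcp1 had the reverse order, with 46.2, 50.2 and 55.0 CPM in treated 1, 2 and 3. Its call did not hold without treated 2, without any 1 control library or with the replicate numbers as a block. The median log2 ratio was 0.07, -0.76 and -1.81 for 10 T cell markers and 0.52, -0.06 and -1.65 for 5 NK cell markers. The 10 tested neutrophil markers had medians of 3.49, 2.34 and -0.28, and their summed level was 66.7, 22.5 and 7.02 CPM in the treated and 4.53 to 7.45 CPM in the control libraries. The 5 red blood cell markers summed to 1471, 486 and 262 CPM in the treated and 98.0 to 249.6 CPM in the control libraries. No gene of these lists that the table holds was at 0 in all 6 libraries, but some defining markers had low counts. Ly6g, a neutrophil surface protein, had 8, 0 and 0 counts in the treated and 0, 0 and 8 in the control libraries. Cd3e, a T cell receptor chain, had 41, 12 and 0 counts in the treated and 62, 8 and 36 in the control libraries. None of these T cell, NK cell, neutrophil or red blood cell markers was called by edgeR, with 2, 0, 6 and 4 at an unadjusted p below 0.05 (16.0% of all genes were), while DESeq2 called 0, 0, 3 and 1. Without treated 3, edgeR called 3 neutrophil markers (Il1r2, S100a8 and S100a9) and the red blood cell gene Hbb-bs higher. The 7 fibroblast markers had medians of 0.26, 0.27 and -0.04, closer together than in the leukocyte lists, and none was called. Treated 1 was the highest and treated 3 the lowest treated library for 4 of these 7, against 19.3% of all tested genes. The part of these cell types in the levels of the 10 genes, Plac8 included, was not tested.

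**Figure D5:**
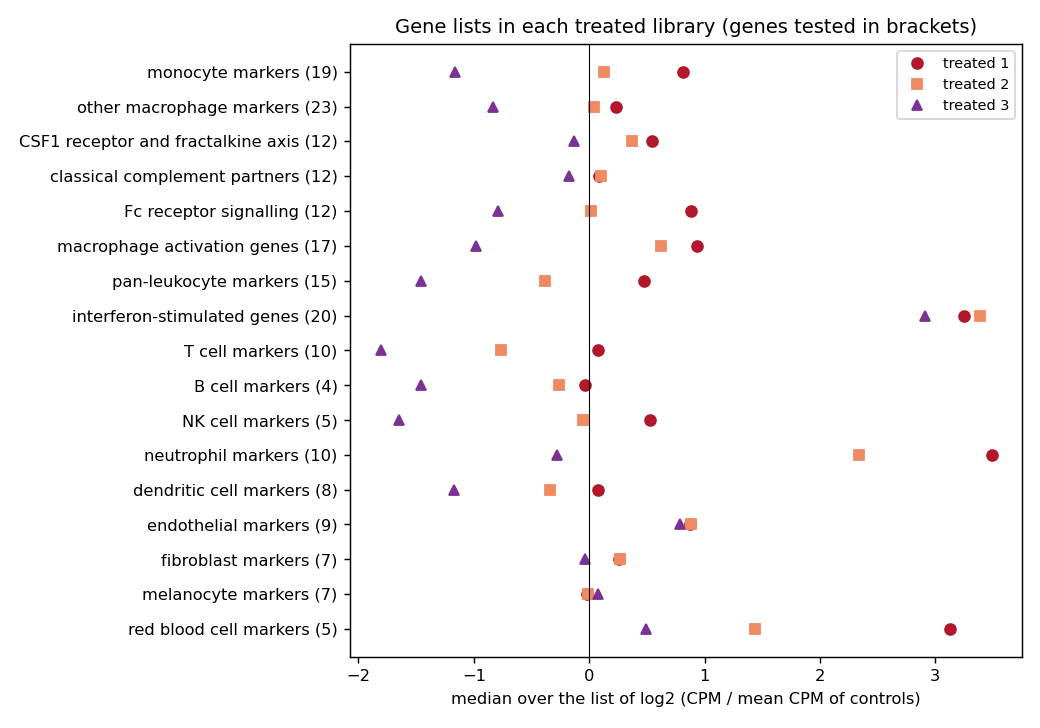
Median log2 ratio of CPM to the control mean for each gene list in treated 1, 2 and 3, 1 point per treated library. The T cell, NK cell, neutrophil and pan-leukocyte lists are highest in treated 1 and lowest in treated 3, the order seen for the C1q genes, while the interferon-stimulated list stays at 2.91 or above in all 3.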

How the data were processed

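RNA of 6 whole-tumour samples was sequenced as paired reads of 150 bp after poly(A) selection, in libraries that mark strand, per the labels' protocols. Tools listed without versions in the submitters' processing notes are fastp, StringTie and edgeR. Not given in the sources used here are the aligner, genome build, annotation and use of strand in counting. The authors deposited raw counts per gene, per the file headers, and FPKM per gene, also deposited by the authors; FPKM served for levels between genes and as an alternative scale, log2(FPKM + 0.1). In GENCODE M21 (GRCm38), 99.7% of gene identifiers occur and 90.0% have the same span.

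Counts were tested in R 4.3.3 with edgeR 4.0.16 (filterByExpr, minimum count 10, minimum total 15; TMM; quasi-likelihood test of group over 6 libraries; Benjamini-Hochberg over 18049 genes; threshold 0.05), checked on simulated counts. Alternatives used limma 3.58.1, DESeq2 1.42.0, other filters and scalings, a replicate block and leaving out each library. List medians used CPM plus 0.01. Where symbols were shared, the symbol was given to the row with the highest mean count. The other 58 rows stayed in the table under their gene identifiers. Named genes were the 10 members, of each list up to 3 genes with the smallest p and the one with the highest mean FPKM, and the 8 nearest to C1q; C3, Cd3e, Csf1, Fcer1g, Ly6g and genes named only as calls of another tool or library set were added after their values were seen. The members, lists and alternatives were chosen with earlier results of these data known. The result of 1 gene in the monocyte marker list is not reported here.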

Additional observations from a re-analysis of the deposited data

How the results depend on the processing

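With 3 libraries a group, a shift of the size seen in C1q could not be separated from the spread of the treated libraries, and the relative comparisons cannot go below an exact p of 0.1. Genes called higher numbered 246 and lower 45 in the edgeR test. They numbered 754 and 367 with DESeq2, 601 and 191 with limma-voom quality weights, and 10 were lower with no low-count filter. The share of calls that were higher was 84.5% with TMM, 84.0% with DESeq2 size factors and 79.5% with library size only. Leaving out each library gave 94 to 308 higher and 3 to 39 lower.

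Of the 10 genes, 1 was called higher, against 0 with limma-voom and 0 to 2 when a library was left out. Plac8 was called in 8 of 14 alternatives, with log2 fold changes of 1.39 to 1.75. Signs reversed when a library was left out for C1qa (-1.10 to 0.16), C1qb (-0.92 to 0.20), C1qc (-0.93 to 0.12) and Siglec1 (-0.42 to 0.47). Relative to C1q, the difference of Cx3cr1 was 0.15 on log2(FPKM + 0.1), where its FPKM lies below the added 0.1. Cx3cr1 could not be tested at a minimum count of 50, and DESeq2 gave it no adjusted p.

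The labels do not state whether the replicate numbers pair the libraries. Deviations of same-numbered libraries correlated at 0.0855, -0.164 and -0.107, and those of differently numbered libraries at -0.148 to 0.239. With 3 libraries a group these values cannot decide whether the libraries are paired. With the numbers as a replicate block, 123 genes were called higher and 14 lower, and 0 of the 10 genes, with Plac8 at an edgeR adjusted p of 0.0794.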

Other observations

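Some macrophage genes outside the 10 varied widely among the control libraries. Retnla, a secreted marker of alternatively activated macrophages, had 0 counts in each treated library and 109, 54 and 10 counts in control 1, 2 and 3. Against a floor of 3 counts per treated library it was at least 19.6-fold lower, with an edgeR adjusted p of 0.0639 (n = 3 against 3). The bound was 11.05-fold without control 1, which held most of the counts. Cd163, a scavenger receptor, measured 0.765, 0.482 and 0.105 CPM in the treated and 3.55, 1.23 and 0.403 CPM in the control libraries, and control 3 fell within the treated range. F13a1 measured 8.06, 4.19 and 2.75 CPM in the treated and 13.7, 8.80 and 2.77 CPM in the control libraries, which overlap.

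Nos2, which makes nitric oxide in activated macrophages, measured 28.1, 16.3 and 3.99 CPM in the treated and 2.81, 5.43 and 6.10 CPM in the control libraries, so treated 3 lay among the controls. Cd40, a costimulatory receptor, measured 4.02, 4.18 and 1.42 CPM in the treated and 0.463, 1.07 and 1.02 CPM in the control libraries, with no overlap (edgeR adjusted p = 0.117). All these genes were chosen after their values were seen, except Retnla and Cd40.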
